A study of Saccharomyces cerevisiae with 6 samples.

Results

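Nearly all proteins of a mitochondrion are made in the cytosol and imported, and the 34 genes described here encode the machinery of that import in Saccharomyces cerevisiae together with the matrix chaperones that fold what arrives. They were chosen by name as subunits of the TOM, SAM, TIM23 and TIM22 complexes, the import motor, the small Tim chaperones, the Mia40 disulfide relay, the processing peptidase and the chaperonin. The rule uses no measured value of these arrays, although the list was drawn up with earlier results of these data known. All 34 were found on the array, by 36 probe sets, among 5656 yeast genes that a probe set names singly, and all 34 entered the statistical model, which held 5462 genes.

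Precursors are recognised and passed through the outer membrane by the TOM complex. Those with a cleavable presequence then cross the inner membrane through the TIM23 translocase, are pulled into the matrix by an Hsp70 motor, are cut by the processing peptidase and fold in the chaperonin. Carrier proteins are escorted by small Tim chaperones to the TIM22 translocase, beta-barrel proteins are inserted into the outer membrane by the SAM complex, and many small intermembrane-space proteins are trapped there by oxidation of their cysteines.

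RNA came from 6 cultures, each measured on 1 Affymetrix GeneChip array that reads each gene through short oligonucleotide probes. The strain, YSX3, is a MATalpha yeast engineered to use the pentose xylose with the Pichia stipitis genes XYL1 (inserted as leu2::LEU2-XYL1), XYL2 (ura3::URA3-XYL2) and XYL3 (Ty3::NEO-XYL3), and its description states no other allele. The petite arrays come from a respiration-deficient mutant named FPL-YSX3P, whose lesion the labels do not state. Its glucose cells were grown in YP glucose and harvested at an OD600 of 1, and its xylose cells were such glucose-grown cells held in YP xylose for 24 h. Oxygen-limited YSX3 grew in 50 ml of YP with 40 g/L of xylose or glucose in 125 ml flasks at 100 rpm to an OD600 of 30. Aerobic YSX3 grew in 200 ml of YP with 20 g/L of xylose or glucose in 1000 ml flasks at 300 rpm to an OD600 of 1. Oxygen supply, sugar concentration, culture volume, shaking and cell density therefore changed together between the oxygen-limited and the aerobic flasks and cannot be told apart. Each combination of sugar and background has a single array. The p-values below therefore set each difference only against the departure of these 6 arrays from additive effects of sugar and background. They do not measure the spread between cultures. That departure has 2 residual degrees of freedom per gene, and limma combines it with the spread over all genes.

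Levels are given as scaled intensity, the deposited brightness after each array was brought to the same median, with every value under 61.7 (the pooled 25th percentile) reported as being at the floor. An intensity cannot be compared between genes, because each probe set has its own sensitivity, and it cannot tell fewer cells with a transcript from less transcript per cell. Before scaling, the 2 oxygen-limited array medians lay 0.38 above that of the glucose aerobic array on the log2 scale, the 2 petite medians 0.31 above it and the xylose aerobic median 0.05 above it. Between 88.0% and 90.5% of the 5656 measured genes were above the floor on each array. The labels were checked against their own marker genes. Of 7 measured genes of the mitochondrial genome, 6 were at the floor on both petite arrays. COX3 went the other way, at 204 on xylose and 137 on glucose in petite cells and at the floor on both aerobic arrays. COB, ATP6, ATP8 and SCEI read only 82 to 134 in aerobic culture, near the floor. By limma, 1 of the 7 was called lower in petite than in aerobic cells and 0 were called higher. OLI1, a mitochondrially encoded ATP synthase subunit, was at the floor on both petite arrays, against 2280 on xylose and 2313 on glucose in aerobic culture. Among 10 hypoxic genes, CYC7 and COX5B were called higher under oxygen limitation, ANB1 was called lower and 7 were not called. Of 4 alpha mating type genes, the alpha-factor gene MF(ALPHA)2 read 142 to 315 on the 3 xylose arrays, against 1408 to 1472 on the 3 glucose arrays, and was called lower on xylose (limma adjusted p = 0.0318). The other 3 were not called in any comparison. MF(ALPHA)1 read 259 on the xylose petite array and between 2393 and 3947 on the other 5 arrays. Of 6 genes of the other mating type, a, MFA1 read 488 to 1245 and MFA2 135 to 287 over the 6 arrays. STE2, STE6, BAR1 and AGA2 read from the floor to 219. Why MFA1 gave a signal in this MATalpha strain was not tested.

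Most import genes had their highest values in aerobic cells. The highest of the 6 arrays was the xylose aerobic one for 22 of the 34 genes and the glucose aerobic one for 7. Over all genes in the model, these arrays held the highest value for 16.5% and 22.9%. At the other end, 14 import genes were lowest on the glucose oxygen-limited array and 8 on the xylose oxygen-limited array, against 17.3% and 20.7% of all genes. The plot of all members by array shows this as red aerobic columns beside mostly blue oxygen-limited ones.

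**Figure D1:**
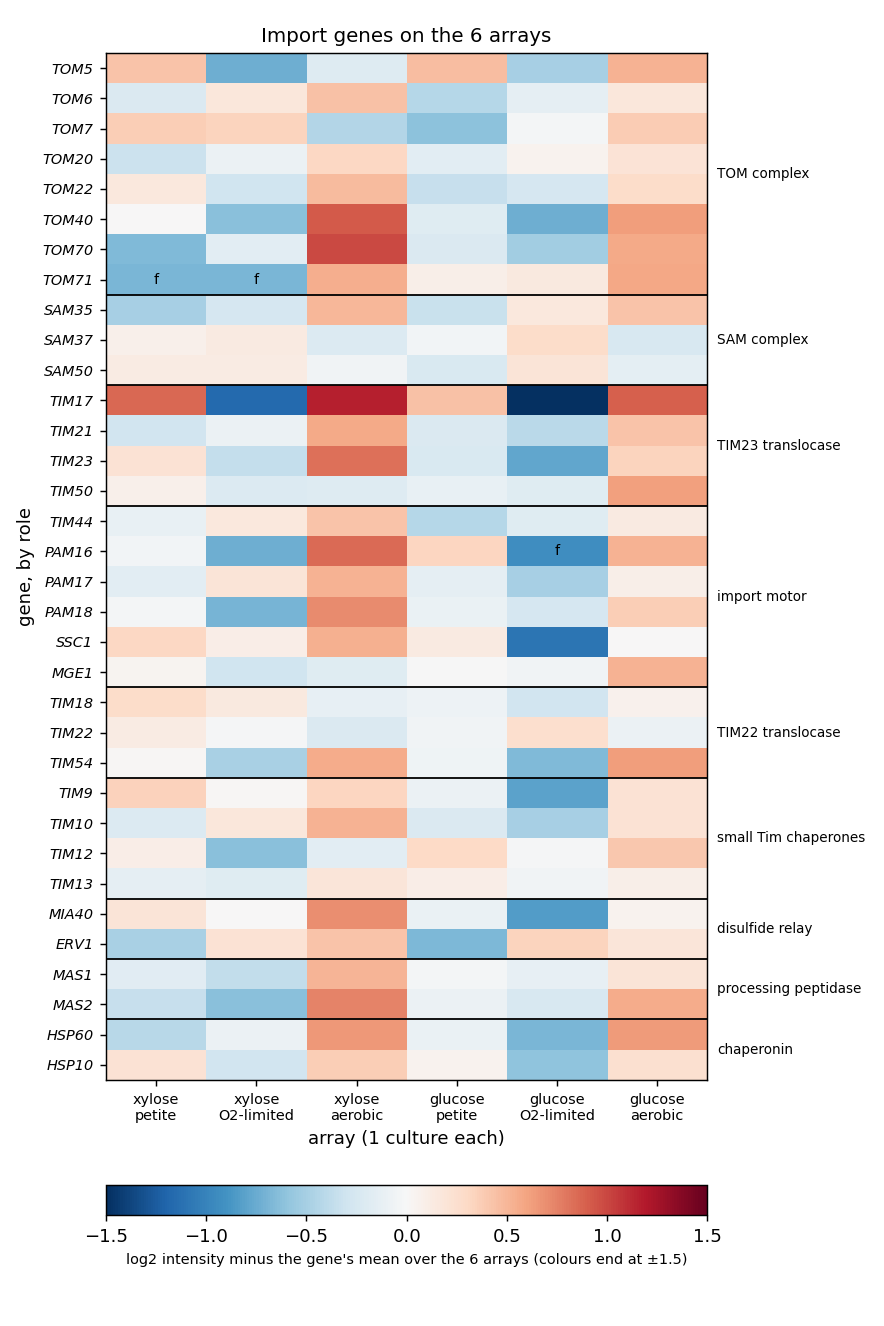
Each row is 1 of the 34 import genes, ordered by role, and each column is 1 array. The colour gives the log2 scaled intensity minus the gene's own mean over the 6 arrays, red above it and blue below it, and f marks a value at the floor. Colours compare arrays within a row and not genes with each other. Of the 34 rows, 22 have their highest value on the xylose aerobic array.

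The first comparison asks how the import genes differed between oxygen-limited and aerobic cells of the same strain. The presequence translocase genes TIM17 and TIM23, the outer-membrane channel TOM40 and the chaperonin genes HSP60 and HSP10 were lower under oxygen limitation. The differences were 6.52-fold for TIM17, 2.75-fold for TOM40 and 2.22-fold for TIM23. For TIM17 this is -2.70 on the log2 scale, and -2.03 with the local median of neighbouring probe sets removed. HSP60 and HSP10 did not pass on the intensities as deposited or after quantile normalization. The channel genes of the carrier and beta-barrel routes, TIM22 and SAM50, had estimates above 0 that did not pass. Of the 34 members, 11 (32.4%) fell at a limma adjusted p under 0.05, where 15.9% of the 5462 genes did. No member rose, where 8.04% of all genes did. At an unadjusted limma p under 0.05, 19 members were lower (25.8% of all genes) and 0 were higher (16.0% of all genes). The members' median difference was -0.63 on the log2 scale, beside -0.08 over all genes. On the intensities as deposited, without scaling, the members' median was -0.27 beside 0.21 over all genes, with 5 members called lower and SAM37 called higher, and the calls over all genes were 430 lower and 1032 higher. The estimates of TOM6, TOM20, TIM44, MGE1, TIM18, TIM13 and ERV1 were then above 0. For 21 members both oxygen-limited arrays lay below both aerobic arrays, a pattern that 36.8% of all genes showed. For SAM37, SAM50 and TIM22 both lay above, as for 25.8% of all genes. In single pairs of arrays, where no test is possible, 9 members were at least 2-fold lower on xylose (26.5%, against 15.4% of all genes measured in the pair) and 10 on glucose (29.4%, against 11.5%). The glucose count was 2 as deposited and 4 after quantile normalization. It was 6 either without the high-numbered probe sets (described further on) or with the local median of neighbouring probe sets removed. Shares over all genes in those settings are not given here. No member was 2-fold higher on xylose or on glucose, where 9.36% and 4.5% of all genes were.

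**Figure D2:**
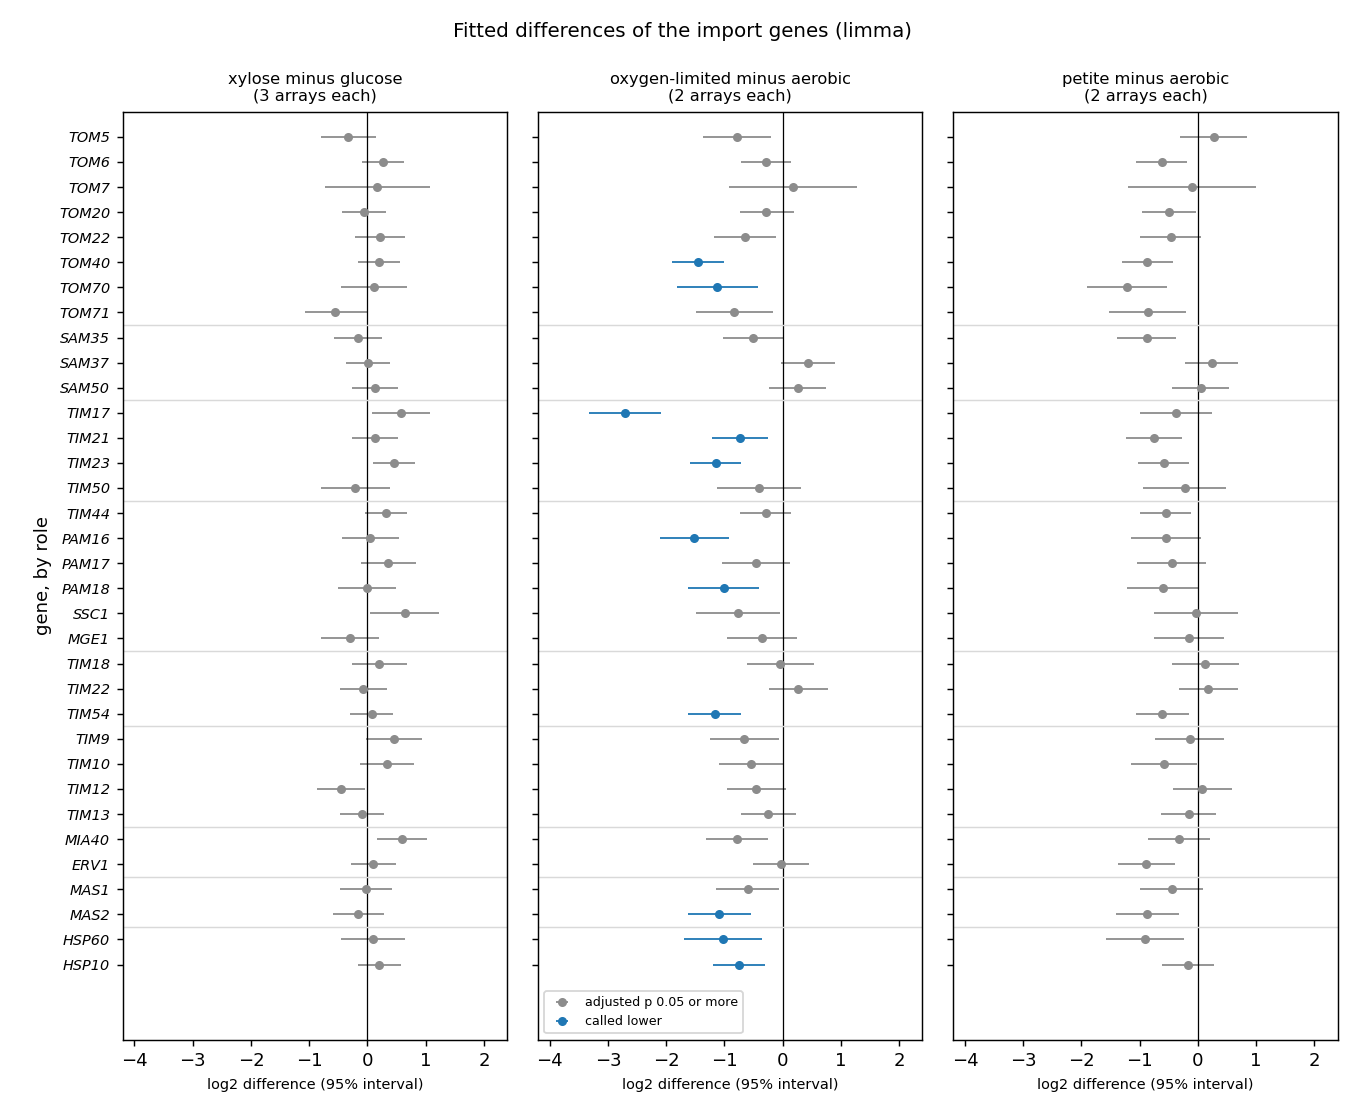
Each row is 1 import gene and each panel 1 comparison, from left to right xylose minus glucose, then oxygen-limited cells and petite cells each minus aerobic cells. Points are limma estimates on the log2 scale over 6 arrays, bars are their 95% intervals, and blue points were called lower at an adjusted p under 0.05 over 5462 genes. Blue points appear only under oxygen limitation, where 11 genes lie below 0.

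The TIM23 translocase, the presequence pathway's gate through the inner membrane, held the largest difference. TIM17 (YJL143W), which forms the translocase with Tim23, read 263 on xylose and 130 on glucose under oxygen limitation, against 1322 and 1097 in aerobic culture. Both oxygen-limited values were far below both aerobic ones. The fitted difference was -2.70 on the log2 scale (SE 0.24, limma adjusted p = 0.0165). TIM23 (YNR017W), its partner and the presequence receptor of the channel, read 838 on xylose and 625 on glucose under oxygen limitation, against 1909 and 1350 in aerobic culture. It fell by 1.15 on the log2 scale (SE 0.17, limma adjusted p = 0.0205), lower in both sugars. TIM21 (YGR033C), which couples the translocase to TOM and to the respiratory chain, read 186 on xylose and 149 on glucose under oxygen limitation, against 291 and 264 in aerobic culture. Its groups did not overlap, and it fell by 0.74 (SE 0.19, limma adjusted p = 0.0473). TIM50, the receptor that takes precursors from TOM, gave a different pattern. It read 280 on xylose and 285 on glucose under oxygen limitation, against 284 and 496 in aerobic culture, and its estimate of -0.41 did not pass (SE 0.29, limma adjusted p = 0.329). The glucose aerobic array alone stood high for TIM50.

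In the TOM complex, 2 of 8 members fell, where 15.9% of all genes did. TOM40 (YMR203W), the channel of the outer membrane, read 366 on xylose and 339 on glucose under oxygen limitation, against 1070 and 873 in aerobic culture. Its groups were well separated, and the difference was -1.46 on the log2 scale (SE 0.18, limma adjusted p = 0.0181). TOM70 (YNL121C), the receptor for carrier precursors delivered by cytosolic chaperones, read 275 on xylose and 214 on glucose under oxygen limitation, against 608 and 456 in aerobic culture. It fell by 1.12 (SE 0.27, limma adjusted p = 0.042). Its less abundant paralog TOM71 was at the floor on xylose and read 110 on glucose under oxygen limitation, against 145 and 148 in aerobic culture. That gave -0.83 (SE 0.26, limma adjusted p = 0.0723), which did not pass, and the floor limits how low the xylose value could be. Cross-hybridisation between the paralogs was not tested.

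The other 5 TOM members did not pass the test. TOM5, a small subunit at the channel, read 415 on xylose and 488 on glucose under oxygen limitation, against 603 and 989 in aerobic culture, an estimate of -0.78 (limma adjusted p = 0.0629, and 0.0479 with the local median of neighbouring probe sets removed). TOM22, the central receptor that also organises the complex, read 453 on xylose and 467 on glucose under oxygen limitation, against 774 and 674 in aerobic culture, an estimate of -0.65 (limma adjusted p = 0.0758). For both genes the oxygen-limited arrays lay below the aerobic ones. TOM6, which stabilises the complex, and TOM20, the presequence receptor, had estimates of -0.29 and -0.28. TOM7, which acts against complex assembly, read 1184 on xylose and 924 on glucose under oxygen limitation, against 695 and 1228 in aerobic culture. Its estimate was 0.18 and the 2 sugars pointed opposite ways.

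The import motor, which pulls chains into the matrix with ATP, had 2 of 6 members called lower (33.3%, against 15.9% of all genes), and 1 of the 2, PAM16, is among those high-numbered probe sets. PAM16 (YJL104W), the J-like regulator of the motor, read 71 on xylose and was at the floor on glucose under oxygen limitation, against 212 and 169 in aerobic culture. The difference was -1.52 on the log2 scale (SE 0.23, limma adjusted p = 0.0209), with 1 of the 2 oxygen-limited values bounded by the floor. PAM18 (YLR008C), the J-protein that stimulates the motor's Hsp70, read 230 on xylose and 312 on glucose under oxygen limitation, against 607 and 481 in aerobic culture. It fell by 1.01 (SE 0.24, limma adjusted p = 0.0407), lower in both sugars. SSC1, the matrix Hsp70 itself, read 1101 on xylose and 478 on glucose under oxygen limitation, against 1487 and 1025 in aerobic culture. The groups overlapped, since the xylose oxygen-limited value exceeded the glucose aerobic one, and the estimate of -0.77 did not pass (SE 0.28, limma adjusted p = 0.105). TIM44, which tethers Ssc1 to the channel, read 414 on xylose and 328 on glucose under oxygen limitation, against 501 and 407 in aerobic culture, with overlapping groups and an estimate of -0.29. PAM17, which helps organise the motor, and MGE1, the nucleotide exchange factor of Ssc1, had estimates of -0.46 and -0.35, and neither passed.

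Along the carrier pathway 1 of 7 members fell, a share near the 15.9% of all genes. TIM54 (YJL054W), a TIM22 subunit exposed to the intermembrane space, read 173 on xylose and 153 on glucose under oxygen limitation, against 357 and 372 in aerobic culture. It fell by 1.16 (SE 0.18, limma adjusted p = 0.0209), and the groups did not overlap. The TIM54 probe set is among the high-numbered ones. With the local median of neighbouring probe sets removed, TIM54 was at -0.54 and did not pass (limma adjusted p = 0.103). TIM22, the channel of that translocase, read 235 on xylose and 284 on glucose under oxygen limitation, against 205 and 224 in aerobic culture. This was an estimate of 0.27 (SE 0.2, limma adjusted p = 0.353), so channel and partner had opposite signs while only TIM54 passed. TIM18, another TIM22 subunit, was at -0.04, and at 0.31 on the intensities as deposited. Of the small Tims, which carry hydrophobic precursors through the intermembrane space, TIM9 read 523 on xylose and 296 on glucose under oxygen limitation, against 646 and 600 in aerobic culture, an estimate of -0.66 (limma adjusted p = 0.0936). TIM10, its partner, read 1209 on xylose and 764 on glucose under oxygen limitation, against 1552 and 1252 in aerobic culture, an estimate of -0.54 (limma adjusted p = 0.132). TIM12 and TIM13 were at -0.45 and -0.25, and neither passed.

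Of the 4 genes for presequence cleavage and folding in the matrix, 3 fell, where 15.9% of all genes did. MAS2 (YHR024C), the substrate-binding subunit of the presequence peptidase, read 152 on xylose and 199 on glucose under oxygen limitation, against 394 and 348 in aerobic culture. It fell by 1.09 (SE 0.21, limma adjusted p = 0.0284). MAS1, the catalytic subunit, read 237 on xylose and 281 on glucose under oxygen limitation, against 437 and 352 in aerobic culture. Its arrays did not overlap, but the estimate of -0.60 did not pass (SE 0.21, limma adjusted p = 0.0961). HSP60 (YLR259C), the chaperonin ring, read 3240 on xylose and 2138 on glucose under oxygen limitation, against 5378 and 5357 in aerobic culture, a difference of -1.03 (SE 0.26, limma adjusted p = 0.0472). Its lid HSP10 (YOR020C) read 1129 on xylose and 905 on glucose under oxygen limitation, against 1773 and 1629 in aerobic culture, a difference of -0.75 (SE 0.18, limma adjusted p = 0.0398). Both chaperonin genes were lower in both sugars.

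The disulfide relay and the SAM complex gave no call. MIA40, the oxidoreductase that traps cysteine-rich proteins, read 771 on xylose and 431 on glucose under oxygen limitation, against 1249 and 796 in aerobic culture. Its groups did not overlap, and its estimate of -0.79 lay just outside the threshold (SE 0.21, limma adjusted p = 0.0502, and 0.0494 with a lower floor). ERV1, the sulfhydryl oxidase that reoxidises Mia40, read 449 on xylose and 487 on glucose under oxygen limitation, against 518 and 439 in aerobic culture, an estimate of -0.03 that turned to 0.32 on the intensities as deposited. SAM50, the pore of the beta-barrel insertase, read 289 on xylose and 303 on glucose under oxygen limitation, against 256 and 239 in aerobic culture, an estimate of 0.26 (SE 0.2, limma adjusted p = 0.365). SAM37, an accessory subunit of the insertase, read 250 on xylose and 275 on glucose under oxygen limitation, against 197 and 192 in aerobic culture, an estimate of 0.43 (limma adjusted p = 0.135), the highest of the 34. SAM35, the receptor for beta-barrel signals, was at -0.51. The signs within this small complex were therefore mixed, and none of its 3 genes passed.

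**Figure D3:**
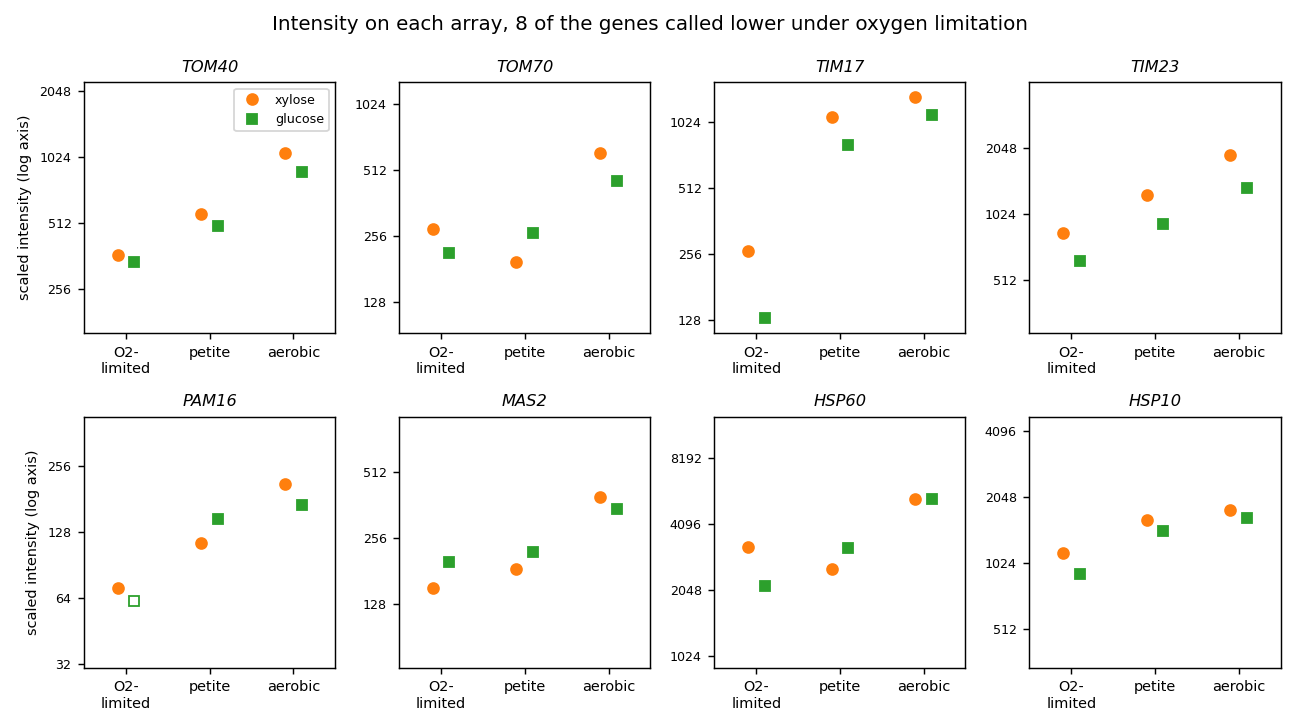
Points are the scaled intensities of 8 of the 11 import genes called lower under oxygen limitation, on a log axis, with oxygen-limited, petite and aerobic arrays from left to right, xylose as orange circles and glucose as green squares; the open square is a value at the floor. In each of the 8 panels both oxygen-limited values lie below both aerobic values, and in the TIM17 panel the petite values of 1071 and 801 lie near the aerobic ones.

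The strength of these calls differed between genes, and so did the surroundings of their probe sets on the array. Probe sets carry running numbers, and the oxygen-limited arrays were dimmer for the 669 genes with the highest ones: the median difference was -0.48 on the log2 scale with 30.2% of those genes called lower, against -0.02 and 13.9% for the remaining genes. TIM17, PAM16, TIM54, SSC1 and MIA40 have such high-numbered probe sets. The other 29 import genes had a median of -0.51, and 8 of them were called lower. When the local median of neighbouring probe sets was subtracted, TIM17 was at -2.03 (limma adjusted p = 0.0145) and PAM16 at -0.85 (limma adjusted p = 0.0316). TIM54 was then at -0.54 and no longer passed (limma adjusted p = 0.103), and SSC1 was at -0.22 (limma adjusted p = 0.501). TOM40 and TIM23 passed in all 9 alternative settings that could be run for them, and TIM17 in all 8. MAS2 passed in 8 of 9, PAM16 and TIM54 in 7 of 8, and HSP10 in 6 of 9. TIM21 passed in 3 of 9, and TOM70, PAM18 and HSP60 in 5 of 9. As deposited and after quantile normalization, HSP60 was at -0.67 and -0.54 and HSP10 at -0.40 and -0.35, and neither passed. What produces the trend along probe set number was not tested.

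**Figure D4:**
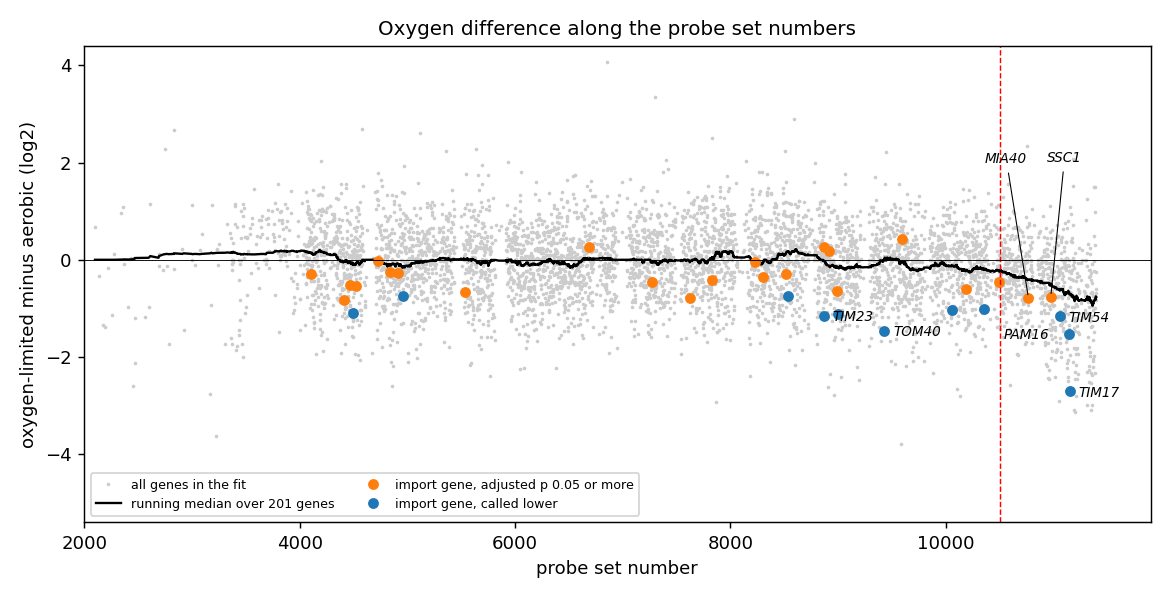
Each grey point is 1 of 5462 genes, placed by the number of its probe set and by its oxygen-limited minus aerobic difference on the log2 scale. Import genes called lower are blue, the other import genes are orange, the black line is the running median, and the red dashed line marks where the 669 high-numbered genes begin. The running median drops there, and TIM17, at -2.70, lies well below it.

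Bright probe sets were also lower as a class. Among the 1366 brightest genes, which include 16 of the 34 members, the median oxygen-limited minus aerobic difference was -0.35 and 20.9% were called lower. The 16 members had a median of -0.71 there, and 5 of them were called. In the next 1365 genes by brightness the median was -0.09, and the 13 members among them had -0.35. The part of brightness in the members' differences was not tested.

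Further genes of the same pathways were measured too. A list of 32 further import and mitochondrial protein quality genes had a median of -0.04 under oxygen limitation, with 2 called higher and 1 lower. ECM10, a paralog of the matrix Hsp70, read 202 on xylose and 122 on glucose under oxygen limitation, against 88 and 67 in aerobic culture, and rose by 1.03 (limma adjusted p = 0.0255). YTA12, a subunit of the inner-membrane m-AAA protease, read 530 on xylose and 468 on glucose under oxygen limitation, against 294 and 239 in aerobic culture, and rose by 0.91 (limma adjusted p = 0.0318). OCT1, the peptidase that trims some precursors after the processing peptidase, read 70 on xylose and was at the floor on glucose under oxygen limitation, against 216 and 152 in aerobic culture. It fell by 1.46 (limma adjusted p = 0.0317), and its probe set is among the high-numbered ones. The other genes nearest the ends of this list did not pass: ZIM17 at 0.90, MDJ2 at 0.73, CPR3 and ICP55 at -0.63 and HOT13 at -0.62. MDJ2 was at the floor on both aerobic arrays and ICP55 on both oxygen-limited arrays, so their values depend on the floor. Mitochondrial ribosomal protein genes had a median of -0.56, with 18 of 66 called lower and 1 higher. Nuclear subunits of respiratory complexes III, IV and V had -0.28, with 0 of 31 called by limma in either direction. Their single pairs differed between the sugars. On glucose the median was -0.75, with 31 genes below 0. On xylose it was 0.13, with 22 genes above 0 and 9 below. Differences between the lists were not tested.

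The second comparison asks how the import genes differed between the petite mutant and aerobic YSX3. It uses the same 2 aerobic arrays as the first, so a high or low aerobic value enters both. The labels do not give the sugar concentration, volume or shaking of the petite cultures, and the xylose cells were shifted from glucose, so the mutation and these conditions cannot be told apart. The receptor TOM70, the channel TOM40, the chaperonin HSP60, the oxidase ERV1, the beta-barrel receptor SAM35 and the peptidase subunit MAS2 had the most negative estimates. None of the 34 passed limma's adjusted threshold in either direction, where 0.0183% of all genes (1 gene of 5462) did so in each direction. At an unadjusted limma p under 0.05, 14 members were lower (22.2% of all genes) and 0 were higher (11.6% of all genes). The members' median was -0.46 on the log2 scale, beside -0.11 over all genes. On the intensities as deposited it was -0.18, beside 0.11 over all genes, with 31 genes of all called lower and 168 higher, and the estimates of TOM7, TIM9, TIM13, TIM50, SSC1, MGE1 and HSP10 were then above 0. Both petite arrays lay below both aerobic arrays for 21 members, and above them for SAM37 and TIM22, against 37.9% and 21.8% of all genes. The lowest adjusted p was 0.0539, for TOM40. Calls in this comparison depended on the settings: over all genes they ran up to 340 lower and 220 higher in the alternatives, and TOM70 passed with a lower floor (limma adjusted p = 0.0482).

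TOM70 had the most negative petite estimate. It read 194 on xylose and 264 on glucose in petite cells, against 608 and 456 in aerobic cells, a difference of -1.22 (SE 0.27, limma adjusted p = 0.0576). TOM40 read 566 on xylose and 497 on glucose in petite cells, against 1070 and 873 in aerobic cells, a difference of -0.87 (SE 0.18). TOM71 was at the floor on xylose and read 105 on glucose in petite cells, against 145 and 148 in aerobic cells, a difference of -0.86 (limma adjusted p = 0.0902). The petite arrays lay below the aerobic ones for all 3 genes. TOM5 went the other way, at 923 on xylose and 944 on glucose in petite cells against 603 and 989 in aerobic cells, with overlapping groups and the highest petite estimate of the 34, 0.27 (limma adjusted p = 0.44).

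HSP60 read 2570 on xylose and 3194 on glucose in petite cells, against 5378 and 5357 in aerobic cells, a difference of -0.91 (SE 0.26, limma adjusted p = 0.0872). HSP10 read 1596 on xylose and 1428 on glucose in petite cells, against 1773 and 1629 in aerobic cells, a difference of -0.17 (limma adjusted p = 0.528). Whether the ring and the lid differ in this was not tested. MAS2 read 186 on xylose and 222 on glucose in petite cells, against 394 and 348 in aerobic cells, a difference of -0.87 (SE 0.21, limma adjusted p = 0.0661). SAM35 read 151 on xylose and 169 on glucose in petite cells, against 302 and 287 in aerobic cells, a difference of -0.88 (limma adjusted p = 0.0602). The petite and aerobic arrays did not overlap for these 4 genes.

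ERV1 read 275 on xylose and 243 on glucose in petite cells, against 518 and 439 in aerobic cells, a difference of -0.89 (SE 0.19, limma adjusted p = 0.0561). It is the member measured by 3 probe sets, and all 3 were lower on both petite arrays. For 2 of them the differences were -0.91 and -0.90 on xylose and -0.86 and -0.80 on glucose on the log2 scale. The other was at the floor on both petite arrays, against 154 on xylose and 144 on glucose in aerobic cells, so its size of change is not measured. TIM21 was at -0.75 (limma adjusted p = 0.0686) and TIM23, at 1248 on xylose and 916 on glucose in petite cells against 1909 and 1350 in aerobic cells, at -0.59 (limma adjusted p = 0.0874). TIM17 read 1071 on xylose and 801 on glucose in petite cells, against 1322 and 1097 in aerobic cells, a difference of -0.38. Its oxygen-limited values of 263 and 130 lay below both petite values; the 2 comparisons share the aerobic arrays, and their difference was not tested.

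The TIM22 translocase and part of the SAM complex lay near or above 0 in petite cells. TIM22 read 259 on xylose and 229 on glucose in petite cells, against 205 and 224 in aerobic cells, a difference of 0.18. SAM37 read 239 on xylose and 220 on glucose in petite cells, against 197 and 192 in aerobic cells, a difference of 0.24 (limma adjusted p = 0.399). Both were higher on both petite arrays, and neither passed. TIM18 was at 0.13, TIM12 at 0.07 and SAM50 at 0.05, each with overlapping groups. TIM54 again differed from its partners, at 245 on xylose and 232 on glucose in petite cells against 357 and 372 in aerobic cells, an estimate of -0.61 that did not pass. In the motor, PAM18 and PAM16 had estimates of -0.60 and -0.55. In single pairs, 4 members were at least 2-fold lower on xylose (TOM70, TOM71, MAS2 and HSP60), 11.8% of members against 13.5% of all genes measured in that pair. On glucose TOM7 alone was, 2.94% against 5.05%. No member was 2-fold higher in either sugar, where 8.44% of all genes were on xylose and 4.72% on glucose.

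The 32 further pathway genes had a median petite difference of -0.15, with 0 called by limma. OCT1 was lowest at -1.23 (limma adjusted p = 0.0677), and its xylose petite value was at the floor, so that estimate depends on the floor. Next were CPR3, a matrix proline isomerase, at -1.04 and HOT13 at -0.62. XDJ1, an outer-membrane J-protein, was highest at 0.69, followed by ECM10 at 0.65 and SOM1 at 0.25. The nuclear subunits of complexes III, IV and V had a median of -1.43 in petite cells with 0 of 31 called by limma, beside -0.46 for the import genes and -0.32 for the mitochondrial ribosomal proteins. In single pairs the median of those subunits was -1.42 on xylose and -1.41 on glucose. Differences between these lists were not tested.

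The third comparison asks how xylose differed from glucose across the 3 backgrounds. The xylose petite cells were glucose-grown and then held in YP xylose for 24 h. In the petite pair, sugar and this shift therefore cannot be told apart. No member passed limma's adjusted threshold, where 0.677% of all genes were called higher and 0.0732% lower. At such low shares over all genes, the lack of a call says little about the members. The lowest limma adjusted p was 0.166, for MIA40. The median difference was 0.11 on the log2 scale, beside -0.03 over all genes. At an unadjusted limma p under 0.05, TIM17, TIM23, SSC1 and MIA40 were higher on xylose (11.8% of members, 12.0% of all genes) and TOM71 and TIM12 lower (5.88% of members, 9.79% of all genes). These shares lie at or under those of all genes. Of the 34, 10 were higher on xylose in all 3 backgrounds, against 22.2% of all genes, and 3 were lower in all 3 (TOM5, TOM71 and TIM12), against 23.3%.

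The motor Hsp70 SSC1 and the oxidoreductase MIA40 had the highest sugar estimates. SSC1 read 1274 in petite, 1101 in oxygen-limited and 1487 in aerobic cells on xylose, against 1127, 478 and 1025 on glucose, a difference of 0.64 (SE 0.23, limma adjusted p = 0.211). MIA40 read 878 in petite, 771 in oxygen-limited and 1249 in aerobic cells on xylose, against 720, 431 and 796 on glucose, a difference of 0.59 (SE 0.17). Both were higher on xylose in each background, though none of these differences passed. TIM17 was at 0.57 (SE 0.2, limma adjusted p = 0.204) and TIM23 at 0.46 (SE 0.14, limma adjusted p = 0.178). TIM9 read 659 in petite, 523 in oxygen-limited and 646 in aerobic cells on xylose, against 485, 296 and 600 on glucose, an estimate of 0.46 (limma adjusted p = 0.242). PAM17 was at 0.36, with petite cells pointing the other way by a little (1207 on xylose and 1234 on glucose). At the low end, TOM71, at the floor on 2 of its 3 xylose arrays, was at -0.55 (limma adjusted p = 0.221) and TIM12, which docks small Tims on the TIM22 translocase, at -0.46 (limma adjusted p = 0.209). TIM12 read 228 in petite, 137 in oxygen-limited and 191 in aerobic cells on xylose, against 261, 210 and 281 on glucose. It was lower on xylose in each background. TOM5 was at -0.33, MGE1 at -0.30, TIM50 at -0.21 and MAS2 at -0.16, and none passed.

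Single-array pairs gave 2 members at least 2-fold apart between sugars, both under oxygen limitation: SSC1 by 1.21 and TIM17 by 1.02 on the log2 scale, which is 5.88% of members against 8.76% of all genes. No member was 2-fold lower there, where 4.24% of all genes were. Both have high-numbered probe sets, and neither reached 2-fold once that local median was removed. In petite cells no member was 2-fold apart, where 5.76% of all genes were higher and 5.28% lower. In aerobic cells none was either, where 3.13% were higher and 2.1% lower. TOM7 had the widest spread around the additive model, with a standard error of 0.44 against a median of 0.21 for the background comparisons. It read 1215 in petite, 1184 in oxygen-limited and 695 in aerobic cells on xylose, against 613, 924 and 1228 on glucose. Its sugar difference was 0.99 in petite, 0.36 in oxygen-limited and -0.82 in aerobic cells. With 1 array per condition, whether the sugar difference depends on background cannot be tested.

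Of the 32 further pathway genes, 0 were called by limma between sugars, and their median was 0.15. SOM1 was at 0.72. TAM41 was at the floor on 2 of 3 glucose arrays and HSP78, the matrix disaggregase, on all 3, so their estimates of 0.70 and 0.64 depend on the floor and have no rank. HOT13, a factor of the Mia40 relay, was lowest at -0.85, followed by IMP2 at -0.40 and by ZIM17 and MIM1 at -0.22. The nuclear subunits of complexes III, IV and V had a median of 0.85 on xylose over glucose and the mitochondrial ribosomal proteins 0.33, beside 0.11 for the import genes, and 0 genes of each list were called by limma. In single pairs the median of those nuclear subunits was 1.47 in oxygen-limited, 0.63 in aerobic and 0.48 in petite cells.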

How the data were processed

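RNA of 6 yeast cultures was measured on 6 Affymetrix arrays. The authors deposited 1 linear intensity per probe set and array; labelling and scanning followed the manufacturer's instructions, per the labels, and their software, scaling and background correction are not stated there. Symbols came from GEO's platform annotation (6504 of 9274 yeast probe sets name 1 gene, 328 several and 2442 none; the last 2 kinds were not used), matched to RefSeq by Entrez number. Arrays were multiplied to share 1 median, lower values were raised to a floor at the pooled 25th percentile (61.7), and the result was converted to log2. For a gene with several probe sets the one of highest mean was used, and genes above the floor on at least 1 array were kept (5462 of 5656).

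limma 3.58.1 (R 4.3.3) fitted background plus sugar to all 6 arrays, two-sided, with Benjamini-Hochberg adjustment over 5462 genes at 0.05. Each gene's variance was moderated by those of all genes (eBayes). The fit was also run on simulated arrays with an additive sugar change and no background effect. That run did not test the oxygen or petite comparisons. Single pairs were called at 2-fold, with no test. The depth of an array is not a count, so the number of arrays limits the precision. Members called, the 6 highest and lowest per comparison, those 2-fold apart in a pair and core members were named. The members and lists were chosen with earlier results of these data known. Leaving out the high-numbered probe sets was added after seeing the data. Sequences and promoters were not used here.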

Additional observations from a re-analysis of the deposited data

How the results depend on the processing

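Cultures could not be paired by replicate, because the labels give no replicate numbers and each condition has 1 array. The model pairs arrays by condition only, sugars within a background and backgrounds within a sugar. Without scaling the median of all genes shifted by 0.29 (log2) for oxygen-limited minus aerobic and by 0.22 for petite minus aerobic. The import genes' oxygen median was -0.27 as deposited, -0.39 after quantile normalization, -0.48 with the running median removed and -0.51 without the high-numbered probe sets; the petite median was -0.18, -0.26 and -0.34 under the first 3. Relative to all genes the oxygen median was -0.55 as reported, -0.49 as deposited and -0.41 after quantile normalization. Import genes called lower under oxygen limitation numbered 5 as deposited, 6 after quantile normalization and 6 with the floor at the 40th percentile, and 1 (SAM37, 0.79) was called higher as deposited. All-gene oxygen calls, 868 lower and 439 higher as reported, were 430 and 1032 as deposited and 558 and 432 after quantile normalization. All-gene petite calls, 1 in each direction as reported, ran up to 340 lower and 220 higher over the alternatives, and all-gene sugar calls, 4 lower and 37 higher as reported, from 0 to 15 lower and from 0 to 83 higher. In petite cells 1 import gene (TOM70, limma adjusted p = 0.0482) was called lower with a 10th-percentile floor, where 6.03% of all genes were. The sugar median ran from 0.07 to 0.13 when 1 background was left out. Without the petite pair 8 import genes were called lower under oxygen limitation, where 14.3% of all genes were. TIM21, PAM18 and HSP10 were lost, and the cause was not tested.

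Over all 34 import genes and 3 comparisons, 897 single values under alternatives kept direction and side of the threshold, 24 no longer passed, 4 newly passed (SAM37 and TOM70 above, MIA40 at -0.79 with the 10th-percentile floor and TOM5 at -0.83 with the running median removed, both under oxygen limitation) and 46 reversed; none of the reversed passed in either setting. As deposited and after quantile normalization, the oxygen estimates became 0.32 and 0.25 for ERV1, 0.31 and 0.15 for TIM18, 0.10 and 0.16 for TIM13, 0.08 and 0.14 for TOM20, and 0.07 and 0.16 for TOM6; the petite estimates became 0.11 and 0.08 for HSP10, 0.24 and 0.21 for SSC1, 0.12 and 0.10 for TIM13, 0.14 and 0.07 for TIM9, and 0.18 and 0.16 for TOM7. As deposited only, MGE1 became 0.01 (oxygen) and 0.13 (petite), TIM44 0.06 (oxygen), TIM50 0.05 (petite) and PAM18 0.01 (sugar). ERV1 was at 0.07 (oxygen) with probe sets averaged. With the running median removed, SSC1 was at 0.13 and TOM7 at 0.01 (petite), and PAM16 at -0.04, TIM54 at -0.02 and PAM18 at 0.01 (sugar). The other reversals concern sugar: PAM16 at -0.01 with the 40th-percentile floor and SAM37 at -0.00 after quantile normalization. Leaving out 1 background in turn, the sugar estimate ran from -0.15 to 0.30 for HSP60, -0.20 to 0.08 for MAS1, -0.08 to 0.26 for PAM16, -0.18 to 0.20 for PAM18, -0.05 to 0.08 for SAM37, -0.20 to 0.03 for TIM22, -0.41 to 0.08 for TIM50, -0.23 to 0.67 for TOM7 and -0.04 to 0.39 for TOM70.

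Counts in single pairs moved with the fold. For single pairs, shares over all genes are given only at 2-fold under the settings reported above. The counts below have no such share beside them, so they do not set the members apart from other genes. At 1.5-fold, xylose minus glucose gave 1 higher and 1 lower in petite, 7 and 2 in oxygen-limited and 1 and 4 in aerobic cells; oxygen-limited minus aerobic gave 1 higher and 16 lower on xylose and 17 lower on glucose; petite minus aerobic gave 2 higher and 16 lower on xylose and 12 lower on glucose. At 3-fold, oxygen-limited minus aerobic gave 1 lower in each sugar, petite minus aerobic 1 lower on xylose and 0 on glucose, and the oxygen-limited sugar pair 0 higher. With the floor at the 10th percentile the petite and the oxygen-limited sugar pairs each gave 1 lower at 2-fold. As deposited, oxygen-limited minus aerobic gave 1 higher on xylose and 2 lower on glucose, and petite minus aerobic 1 higher and 2 lower on xylose and 0 lower on glucose. Quantile normalization gave 1 higher on xylose and 4 lower on glucose for oxygen limitation, and 1 higher and 2 lower on xylose and 0 lower on glucose for petite. With the running median removed, oxygen limitation gave 6 lower on glucose, petite 2 lower on xylose and 0 on glucose, and the oxygen-limited sugar pair 0 higher. Without the high-numbered probe sets, the oxygen-limited glucose count was 6 lower and the oxygen-limited sugar count 0 higher.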

Other observations

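TIM50 and MGE1 were brightest on the glucose aerobic array alone, a pattern picked out after the values were seen. TIM50 read 496 there and 280 to 342 on the other 5 arrays, and MGE1 read 465 there and 263 to 333 on the other 5. The aerobic xylose minus glucose differences were -0.81 for TIM50 and -0.70 for MGE1 on the log2 scale, while 25 of the 34 import genes were above 0 in the same pair. TOM5 and TOM7, at -0.71 and -0.82 in that pair, were also bright on other arrays. With 1 array per condition these differences carry no test.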
